A study of Homo sapiens with 12 samples.

Results

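The control cells of this study are 4 samples that received no acriflavine, out of 12 samples in all. They were identified by their labels, and the choice of this group was made with earlier results of these data known. The cells are labelled HepG2, a human hepatoblastoma line. The sample descriptions name the derivative HepG2S1, a line made resistant to sorafenib, a kinase inhibitor, by months of exposure to rising doses. Control samples are labelled as untreated, whereas the protocol speaks of DMSO as vehicle, and all cells were collected 24 h after a change of medium near confluence. The medium, shared by every sample of the series, held 10% fetal calf serum, 20 mU/mL insulin and 50 nM of the glucocorticoid dexamethasone. Each sample gave 1 poly-A RNA library. The labels number the 4 libraries without saying whether they came from separate cultures, so their spread may be technical. All descriptions name the same resistant line, and parental HepG2 was not analysed here.

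Hepatocytes and hepatoblasts are recognised by a network of transcription factors, among them HNF4A, the FOXA factors and CEBPA. These switch on genes of secreted plasma proteins, the urea cycle, gluconeogenesis and drug metabolism. Hepatoblasts, the fetal precursors, also make alpha-fetoprotein, glypican 3 and insulin-like growth factor 2. HepG2 is known as a line that keeps much of this secretory programme, albumin and alpha-fetoprotein included.

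The albumin and alpha-fetoprotein genes had 0 counts in all 4 control libraries, so the labelled cell type was not borne out by these defining markers. Both genes lie on human chromosome 4, and their promoters are shown because these 2 products define the labelled cell type. Each window is 300 bases of the plus strand of GRCh38.p14 from RefSeq, with 250 bases before and 50 after the start. The albumin window is chr4:73404037-73404336 and the alpha-fetoprotein window is chr4:73435971-73436270. Capitals mark the 50 bases from the annotated start on.
ALB: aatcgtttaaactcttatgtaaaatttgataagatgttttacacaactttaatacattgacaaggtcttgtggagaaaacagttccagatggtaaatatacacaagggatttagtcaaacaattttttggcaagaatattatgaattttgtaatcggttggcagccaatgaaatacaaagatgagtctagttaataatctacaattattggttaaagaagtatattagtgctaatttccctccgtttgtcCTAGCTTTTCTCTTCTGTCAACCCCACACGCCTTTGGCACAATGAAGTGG
AFP: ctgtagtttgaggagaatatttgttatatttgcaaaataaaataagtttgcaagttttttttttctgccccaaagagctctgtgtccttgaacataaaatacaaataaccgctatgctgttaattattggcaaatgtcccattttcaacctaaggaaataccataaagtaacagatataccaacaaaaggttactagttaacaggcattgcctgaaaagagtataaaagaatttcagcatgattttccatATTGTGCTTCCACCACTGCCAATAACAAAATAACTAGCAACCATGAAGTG

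Library totals ran from 11891849 to 14024568 counts, and RNA of the mitochondrial genome took 3.24% to 3.67% of them. Each of the 6 pairs of libraries differed beyond the noise of sampling, with 0 identical pairs and a chi-square of 2.13 to 5.41 per degree of freedom. Across genes, Pearson correlations of log2 levels lay between 0.9940 and 0.9966, which describes libraries that share their genes and has no test. Levels are given as CPM, counts per 1000000 counts, on library sizes scaled by the trimmed mean of M-values (TMM). A gene is called expressed here at 1 CPM or more in each of the 4 libraries, and silent at 3 or fewer counts summed over them. Of 19335 protein-coding genes, 11174 were expressed (57.8%) and 6190 were silent (32.0%), of which 4795 had 0 counts, and 1971 lay between. The median over all protein-coding genes was 6.84 CPM. A gene at 0 counts could still have had up to 0.0582 CPM, the value of 3 counts over the 4 libraries. With 1 group there is nothing to test against, so the values are descriptions with their spread between libraries.

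The most abundant RNAs were those of the mitochondrial genome, the cytoskeleton, glycolysis and keratin 7. MT-RNR2, the large mitochondrial ribosomal RNA, was first at 9994 ± 1428 CPM (SD, n = 4). Its values of 10926, 9655, 11272 and 8122 CPM in control libraries 1 to 4 were lowest in library 4. Of the 20 genes with the highest CPM, 5 were mitochondrial, namely MT-RNR2, MT-ND4, MT-CO1, MT-CO2 and MT-CO3. Others were the glycolytic enzymes GAPDH (5432 ± 239 CPM), PKM (2397 ± 149) and ENO1 (2246 ± 157). The cytoskeletal genes ACTB (4715 ± 364 CPM), FLNA (3596 ± 227), TUBB (2683 ± 239) and ACTG1 (1947 ± 198) were also among them. These 20 genes held 7.01% of all counts and the first 100 held 15.4%.

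Lineage and growth genes stood among these housekeeping genes. KRT7, a keratin of ducts and simple epithelia that hepatocytes lack, ranked 7th by CPM. Its values were 3241, 3322, 3669 and 3609 CPM, with libraries 3 and 4 above 1 and 2. CPS1, which starts the urea cycle, ranked 17th with 2088, 2096, 2142 and 2046 CPM, values that lay close together. SLC7A5, which imports leucine and other large amino acids, reached 2762 ± 127 CPM, and RRM1, the large subunit of ribonucleotide reductase, 2475 ± 47.7 CPM. Long genes collect more reads, so genes were also compared by their level per length, CPM per kilobase of exon rescaled to the same sum in every library, a scale called ppm here. On that scale the actin-binding peptide TMSB10 led the nuclear protein-coding genes at 7794 ± 225 ppm. It was followed by GAPDH (5082 ± 104 ppm), the ferritin chain FTH1 (4063 ± 303), ACTB (3735 ± 213), the ferritin chain FTL (2546 ± 135) and KRT7 (2357 ± 93.1). The small calcium-binding proteins S100A6 (2095 ± 125 ppm), S100A11 (1580 ± 112) and S100A4 (1552 ± 34.5) were among the first 20 as well, whereas CPS1, with 10775 bases of exons, came 114th.

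Plasma protein genes of the liver were close to absent, apart from complement C3. Of 30 such genes, 1 was expressed (3.33%, against 57.8% of protein-coding genes) and 19 were silent (63.3%, against 32.0%). Those at 0 counts were 12, with ALB, AFP, transferrin (TF), haptoglobin (HP), prothrombin (F2) and plasminogen (PLG) among them. C3, the central complement component, had 643, 626, 693 and 633 CPM and held 99.6% of the list's summed level. Without it the 30 genes summed to 1.99 to 3.08 CPM per library. Apolipoprotein genes were low but not all at 0. APOE had 0.595, 0.497, 0.940 and 0.405 CPM, and APOA1 had 9 counts in all (95% exact Poisson interval 0.0798 to 0.331 CPM). The carrier protein gene TTR and the protease inhibitor gene SERPINA1 had 1 count each (0.000491 to 0.108 CPM). In RNA of whole cultures, fewer cells of a type and less RNA per cell cannot be told apart.

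**Figure D1:**
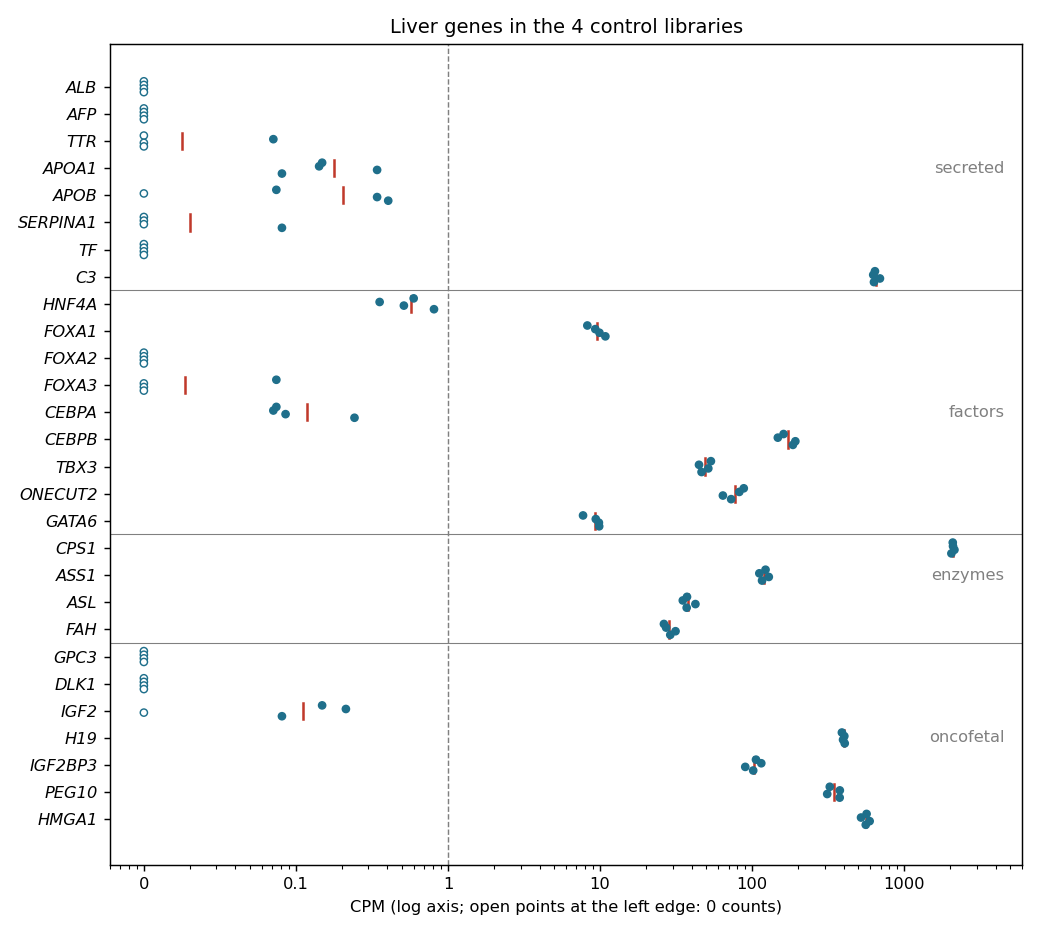
Level of liver genes in each of the 4 control libraries, in CPM (log axis); each point is 1 library, open points at the left edge stand for 0 counts, red bars are means and the dashed line marks 1 CPM. ALB, AFP, TF, FOXA2, GPC3 and DLK1 are at 0 in every library, while C3, CPS1 and H19 lie near 649, 2093 and 399 CPM.

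The core hepatocyte transcription factors were likewise low, while broader factors of the list were expressed. FOXA2 had 0 counts, and FOXA3 had 1. HNF4A, the nuclear receptor that organises the hepatocyte programme, had 0.595, 0.355, 0.513 and 0.809 CPM, under 1 CPM in all libraries. CEBPA had 6 counts (0.0427 to 0.253 CPM). The bile acid receptor NR1H4, its partner repressor NR0B2 and PROX1 were at 0. Of 22 matched factors, 8 were expressed (36.4%, against 57.8%) and 9 silent (40.9%, against 32.0%), with a median of 0.20 CPM. The expressed ones were, in order of level per length, CEBPB, XBP1, TBX3, ONECUT2, HHEX, PPARA, FOXA1 and GATA6. CEBPB, a factor of the acute-phase response, stood at 172 ± 20.9 CPM and XBP1, a factor of secretory and stressed cells, at 135 ± 8.34 CPM. FOXA1 was the only expressed member of the 3 FOXA genes, with 8.25, 9.31, 9.92 and 10.8 CPM. In that order ONECUT2, HHEX and PPARA overlapped with their neighbours, as did FOXA1 with GATA6 (9.20 ± 1.01 CPM).

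Liver enzymes and transporters were mostly silent, with a few exceptions in nitrogen and tyrosine metabolism. Of 38 genes, 5 were expressed (13.2%, against 57.8%) and 26 were silent (68.4%, against 32.0%). The exceptions were CPS1, the argininosuccinate enzymes ASS1 (120 ± 7.49 CPM) and ASL (38.0 ± 3.13 CPM), FAH, the last enzyme of tyrosine breakdown (28.5 ± 2.23 CPM), and GLUL, which makes glutamine (8.06 ± 0.939 CPM). Of the other urea cycle enzymes, OTC and ARG1 were both at 0. The gluconeogenic enzyme G6PC1, the bile acid carriers ABCB11 and SLC10A1, the cytochromes CYP3A4 and CYP2C8, and the conjugating enzymes UGT1A1 and UGT2B7 were at 0 as well. CPS1 alone made up 91.4% of the list's summed level, and the other members together had 184 to 214 CPM per library.

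Fetal and oncofetal genes were split between silent liver markers and expressed growth regulators. GPC3, DLK1 and AFP, which mark hepatoblasts, had 0 counts, and so did the imprinted genes MEG3 and PEG3. H19, the imprinted noncoding RNA next to IGF2, was abundant with 390, 404, 397 and 407 CPM. IGF2 itself had 6 counts over the 4 libraries (0.0427 to 0.253 CPM). PEG10, an imprinted gene derived from a retrotransposon, reached 348 ± 34.4 CPM. The chromatin protein HMGA1 stood at 560 ± 29.9 CPM and the tetraspanin TSPAN8 at 87.5 ± 9.17 CPM. The mRNA-binding proteins IGF2BP3 (103 ± 10.3 CPM), IGF2BP1 (93.8 ± 2.59) and IGF2BP2 (17.1 ± 2.73) were all expressed. Of the 18 genes, 9 were expressed (50%) and 7 silent (38.9%), shares near those of all protein-coding genes (57.8% and 32.0%), with a median of 2.81 CPM.

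Keratins of simple epithelia were high, and bile duct markers were mixed. KRT8, the type II keratin of hepatocytes and other simple epithelia, had 1201, 1309, 1390 and 1483 CPM, and its partner KRT18 had 492, 542, 584 and 655 CPM. KRT19, a keratin of bile ducts, had 195 ± 18.5 CPM. The mucin MUC1 (78.4 ± 3.20 CPM), gamma-glutamyltransferase GGT1 (75.9 ± 6.89) and SOX4 (46.8 ± 2.27) were expressed too. The duct factor SOX9 had 0.743, 3.05, 1.97 and 0.890 CPM and missed the limit in libraries 1 and 4. Osteopontin (SPP1) and TFF3 had 0 counts, and EPCAM, an adhesion molecule of epithelial progenitors, was low at 3.43 ± 0.229 CPM. Of 14 matched duct markers, 6 were expressed (42.9%, against 57.8%) and KRT7 held 89.6% of their summed level.

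Epithelial and mesenchymal genes were expressed side by side. Of 30 epithelial genes, 22 were expressed (73.3%, against 57.8%), with a median of 31.9 CPM, and of 22 mesenchymal genes, 15 (68.2%, against 57.8%), with a median of 17.2 CPM. Desmosome genes were abundant, with DSP, the plaque protein desmoplakin, at 738 ± 37.9 CPM and JUP at 459 ± 30.6 CPM. The tight junction genes CLDN1 (86.6 ± 4.22 CPM) and CLDN7 (43.2 ± 5.87 CPM) were expressed. Other members were low or at 0. E-cadherin (CDH1) had 18 counts (0.207 to 0.551 CPM) and OCLN 17 (0.192 to 0.528 CPM), and OVOL1 and RAB25 had 0. The splicing factor ESRP1 had 1 count and the epithelial factor GRHL2 had 3, whereas ESRP2 stood at 45.5 ± 3.93 CPM. N-cadherin (CDH2) had 237, 249, 245 and 255 CPM, all far above the CDH1 values of 0.446, 0.426, 0.342 and 0.162 CPM. Per length the values were 139 ± 4.30 and 0.156 ± 0.0606 ppm.

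Mesenchymal markers varied over a wide range. Per length S100A4 led at 1552 ± 34.5 ppm. Vimentin (VIM), an intermediate filament of mesenchymal cells, came next at 980 ± 36.9 ppm, and its values overlapped those of the galectin LGALS1 (889 ± 61.8). The regulators TWIST1 (15.9 ± 0.599 CPM), SNAI2 (18.5 ± 1.91) and ZEB1 (24.5 ± 3.70) were expressed. CDH11 and FOXC2 had 0 counts. Of 15 squamous and basal genes, 5 were expressed (33.3%, against 57.8%) and 5 silent (33.3%, against 32.0%), with a median of 0.413 CPM. The expressed members were SFN (145 ± 5.41 CPM), PERP (215 ± 3.51), KRT6A (91.2 ± 15.7), KRT17 (43.1 ± 4.65) and KRT16 (20.1 ± 3.73). The basal factor TP63 was at 0.413 ± 0.103 CPM, KRT5 at 0.707 ± 0.287 CPM and KRT14 at 5 counts (0.0315 to 0.226 CPM). KRT6B, a near copy of KRT6A, had 0 counts, and how reads were divided between such copies is uncertain.

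**Figure D2:**
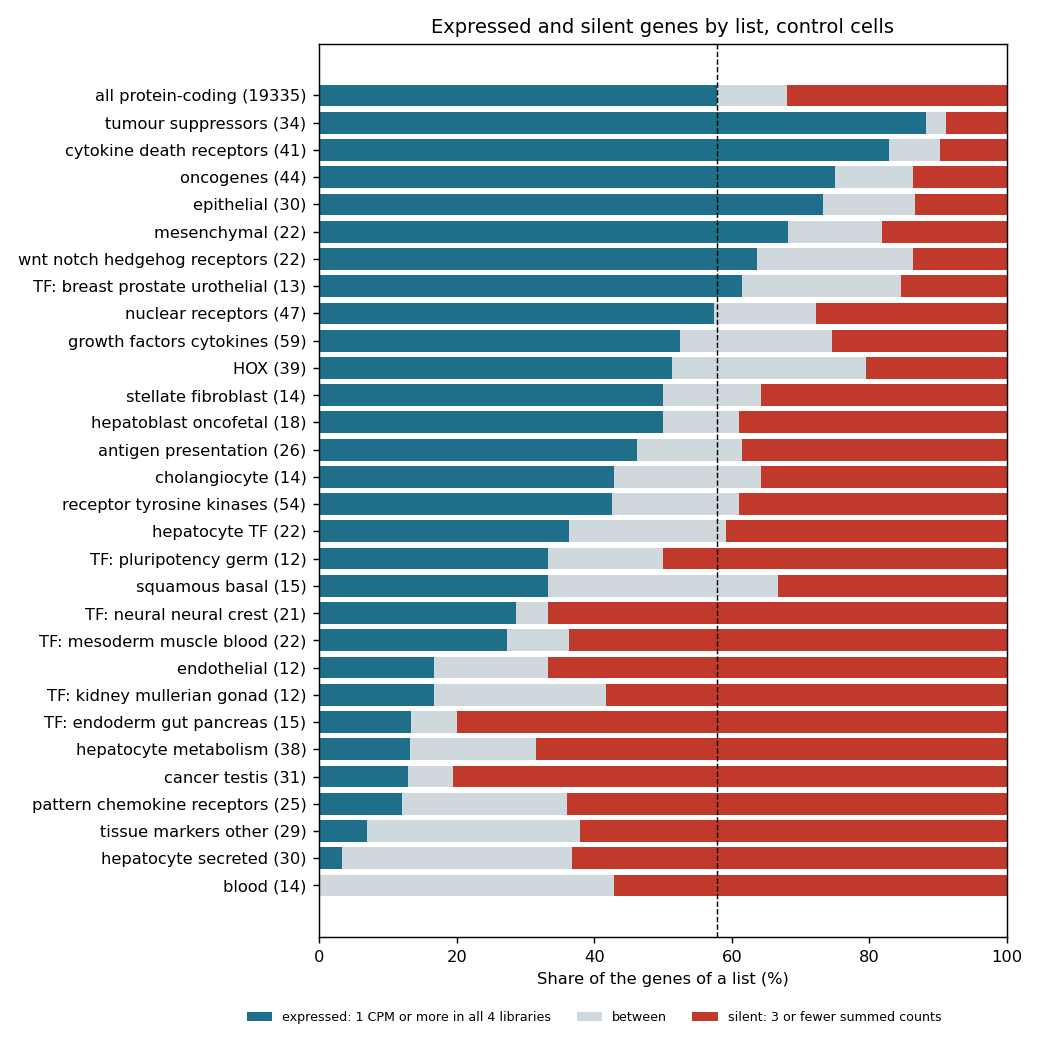
Share of the genes of each list (number of matched genes in brackets) that were expressed, silent or between in the 4 control libraries, with all 19335 protein-coding genes on top; the x axis is percent of genes and the dashed line marks their expressed share of 57.8%. Tumour suppressor, cytokine receptor and oncogene lists lie above it. The lists of blood genes, plasma protein genes and terminal markers of other tissues lie far below. Among factor lists of other tissues, that of breast, prostate and urothelium lies slightly above it (61.5%).

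Among markers of other cells that a liver culture could hold, those of blood and endothelium were mostly absent, and those of fibroblasts were mixed. Of 14 blood cell genes 0 were expressed (against 57.8% of protein-coding genes), and their summed level was 1.07 to 1.699 CPM per library, with CD3E, CD3D, CD4, CD8A and MS4A1 at 0. Of 12 endothelial genes, 2 were expressed (16.7%, against 57.8%), EGFL7 (12.6 ± 1.73 CPM) and ESAM (7.70 ± 0.508 CPM), while PECAM1, KDR, ERG and 3 others had 0 counts. Of 14 fibroblast and stellate cell genes, 7 were expressed (50%, near the 57.8% of all protein-coding genes), and the list's summed level was 616 to 761 CPM. Decorin (DCN), a matrix proteoglycan, had 572, 564, 549 and 473 CPM, and lumican (LUM) had 133, 130, 96.7 and 97.7 CPM. The defining fibrillar collagens COL1A2 and COL3A1 and the surface marker THY1 were at 0, as was LRAT, which stores retinoids in stellate cells. The other expressed members were COL1A1 (21.6 ± 2.93 CPM), the surface protease FAP (17.8 ± 2.71), smooth muscle actin ACTA2 (8.11 ± 1.07), PDGFRB (4.32 ± 0.551) and RGS5 (1.71 ± 0.424). DCN and LUM overlapped per length (117 ± 11.1 and 106 ± 20.8 ppm).

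Lineage factors of other tissues were largely silent, and the few that were expressed came from several tissues. Of 15 gut, pancreas, lung and thyroid factors, 2 were expressed (13.3%, against 57.8%) and 12 were silent (80%, against 32.0%). All 12 silent factors had 0 counts (CDX2 and PDX1 among them), and the thyroid factor FOXE1 was expressed at 11.5 ± 0.629 CPM. Of 12 kidney, Müllerian and gonadal factors, 2 were expressed (16.7%, against 57.8%), FOXL2 (8.05 ± 0.523 CPM) and SIX2 (2.396 ± 0.256). PAX8 was at 0.658 ± 0.108 CPM. Of 21 neural and neural crest factors, 14 were silent (66.7%, against 32.0%). MITF (47.3 ± 4.57 CPM), the repressor of neural genes REST (30.2 ± 3.60), OTX1 (6.41 ± 0.241) and LHX6 (4.91 ± 0.805) were the first expressed genes per length, and SOX10, PAX6 and SOX1 had 0 counts.

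The list of breast, prostate and urothelial factors had the largest expressed share of the 6 factor lists of other tissues, 8 of 13 (61.5%), which was near the 57.8% of all protein-coding genes. KLF5, a factor of proliferating epithelia, stood at 152 ± 7.65 CPM and TFAP2A at 129 ± 3.13 CPM. HOXB13 followed with 10.7 ± 0.478 CPM, whereas GATA3 was at 1.68 ± 0.612 CPM. Of 22 mesodermal, muscle and blood factors, 6 were expressed (27.3%, against 57.8%), led per length by GATA2 (29.6 ± 1.41 CPM) and RUNX1 (56.4 ± 2.74 CPM), and MYOD1, GATA1 and TBXT had 0 counts. Of 12 pluripotency and germ cell factors, 4 were expressed (33.3%, against 57.8%), namely KLF4 (30.2 ± 1.12 CPM), TFCP2L1 (22.0 ± 4.56), PRDM1 (10.9 ± 0.394) and POU5F1 (1.51 ± 0.487). POU5F1 has several pseudogene copies, so its low count is uncertain, and NANOG was at 0. Of 29 terminal markers of other tissues, 2 were expressed (6.90%, against 57.8%), MUC16 (8.60 ± 1.77 CPM) and PMEL (2.49 ± 0.534 CPM).

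HOX genes, which record position along the body axis, were expressed mostly from 3 of the 4 clusters. With the clusters pooled, the posterior paralogue groups had the highest sum. Of 39 genes, 20 were expressed (51.3%, against 57.8%) and 8 silent (20.5%, against 32.0%). Expressed were 8 of 10 genes of HOXB, 6 of 9 of HOXC, 5 of 11 of HOXA and 1 of 9 of HOXD. The shares of HOXB and HOXC lay above the 57.8% of all protein-coding genes, and those of HOXA and HOXD below it. Over all clusters, the 16 genes of paralogue groups 9 to 13, the posterior groups, summed to 270 to 293 CPM per library. The 11 genes of groups 5 to 8 summed to 50.3 to 59.2 CPM and the 12 of groups 1 to 4 to 16.3 to 17.8 CPM. These sums cover unequal numbers of genes. The order of the groups did not hold within HOXB, where HOXB7 led per length (33.5 ppm), ahead of HOXB9 (9.33 ppm) and HOXB13 (8.61 ppm). The highest single genes were HOXC10 with 69.4, 66.6, 71.7 and 64.0 CPM and HOXA11 with 53.4, 63.7, 57.4 and 66.0 CPM. Their ranges per length overlapped, and both lay apart from the genes that followed, HOXC13 (32.2 ± 2.69 CPM), HOXB7 (18.3 CPM), HOXA10 (38.9 ± 4.09) and HOXA13 (47.3 ± 3.28). HOXD9 was the single expressed HOXD gene at 2.50 ± 0.525 CPM, and HOXB1, HOXC12, HOXD1, HOXD3, HOXD4 and HOXD12 had 0 counts. Whether strand was used in counting is unknown, and antisense RNAs of these clusters could not be told apart from the genes.

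**Figure D3:**
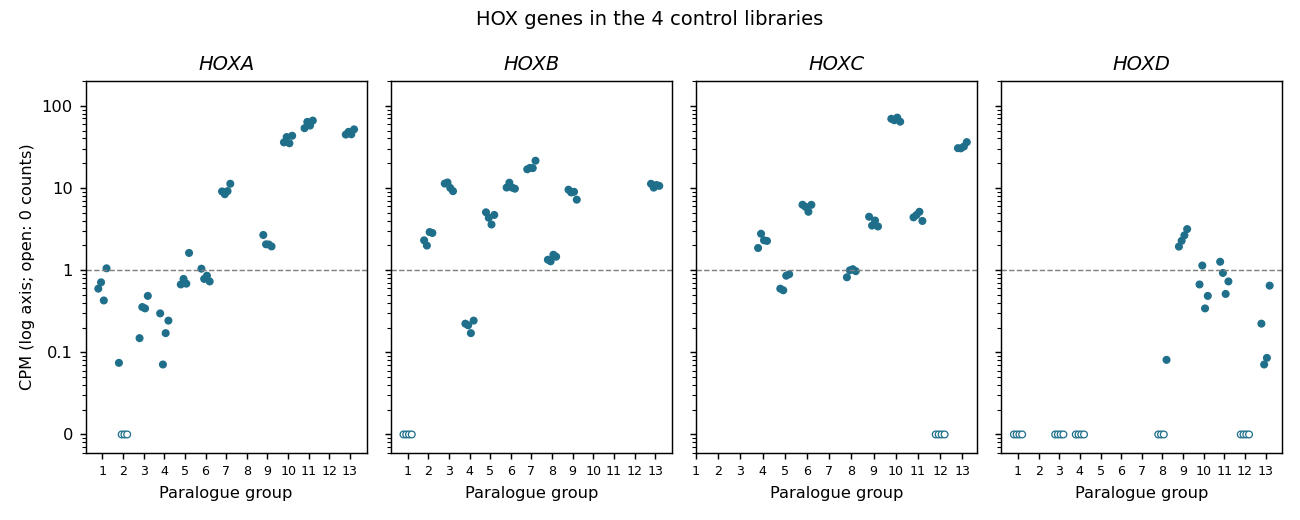
Level of each HOX gene in the 4 control libraries by cluster and paralogue group (x axis), in CPM (log axis); points are libraries, open points stand for 0 counts and the dashed line marks 1 CPM. HOXA10, HOXA11, HOXA13, HOXC10 and HOXC13 lie above 30 CPM in every library, and HOXD genes lie near or under 1 CPM except HOXD9.

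AXL, EPHA2, MET and EGFR were the receptor tyrosine kinases with the highest levels per length, and KIT and the vascular receptors KDR and FLT1 had 0 counts. Of 54 receptor tyrosine kinases, 23 were expressed (42.6%, against 57.8%) and 21 silent (38.9%, against 32.0%). Per length the order began AXL (184 ± 4.30 ppm), EPHA2 (119 ± 5.81), MET (103 ± 8.36), EGFR (65.0 ± 4.95) and EPHB4 (39.8 ± 1.78), and the 4 values of each lay apart from those of the next. EGFR had 274, 296, 276 and 320 CPM, and MET, the HGF receptor, had 245, 276, 240 and 274 CPM. ERBB2 stood at 64.3 ± 3.35 CPM, ERBB3 at 14.1 CPM and ERBB4 at 6.58 ± 0.799 CPM. The receptor of FGF19, FGFR4, was at 41.9 ± 4.01 CPM and IGF1R at 41.3 ± 1.71 CPM. Of the known targets of sorafenib, the kinase BRAF was expressed at 11.2 ± 1.33 CPM and PDGFRB was low at 4.32 ± 0.551 CPM. FLT3 had 0 counts, like KDR, FLT1 and KIT, and RET had 1. Of the ephrin receptors, EPHA2, EPHB4, EPHB2 and EPHA10 were expressed, and EPHA4, EPHA7, EPHA8, EPHB3 and EPHB6 had 0 counts.

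**Figure D4:**
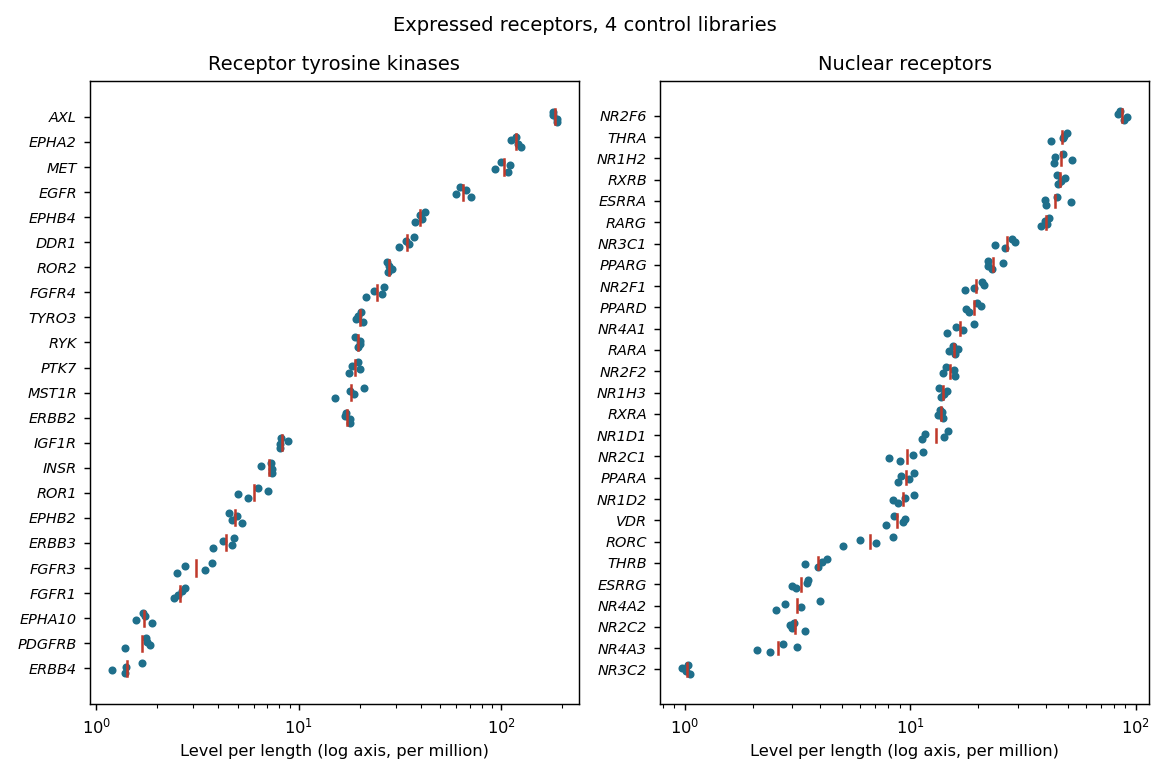
Level per length (log axis, ppm) of the expressed receptor tyrosine kinases and nuclear receptors in the 4 control libraries, ordered by mean; points are libraries and red bars are means. AXL, EPHA2, MET and EGFR lead the first panel without overlap, and NR2F6 leads the second at 87.4 ppm.

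Nuclear receptors of broad expression were present, and those of oestrogen and progesterone were low or silent. Of 47 matched receptors, 27 were expressed (57.4%, against 57.8%) and 13 silent (27.7%, against 32.0%), shares near those of all protein-coding genes. NR2F6 led per length at 87.4 ± 3.82 ppm, followed by the thyroid hormone receptor THRA (47.0 ± 3.39), the liver X receptor NR1H2 (46.7) and RXRB (46.3 ± 1.65), which overlapped. The glucocorticoid receptor NR3C1, whose ligand was in the medium, had 90.7, 94.3, 80.7 and 87.3 CPM. Per length it stood at 26.9 ± 2.33 ppm against 1.02 ± 0.0339 ppm for the mineralocorticoid receptor NR3C2. PPARG, a regulator of lipid storage, stood at 37.8 ± 2.64 CPM. The oestrogen receptor ESR1 had 19 counts (0.222 to 0.575 CPM) and the progesterone receptor PGR had 3.

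Receptors of cytokines and death ligands were broadly expressed, while immune pattern and chemokine receptors were not. Of 41 cytokine, death and TGF-beta family receptors, 34 were expressed (82.9%, against 57.8%), with a median of 21.0 CPM. Tumour necrosis factor receptor TNFRSF1A (254 ± 16.1 CPM), TNFRSF12A (107 ± 14.6), the lymphotoxin receptor LTBR (280 ± 10.3) and the TRAIL receptor TNFRSF10B (150 ± 2.83) were the first 4 per length. GHR, the growth hormone receptor of liver, had 1 count. Of 25 Toll-like and chemokine receptors, 3 were expressed (12%, against 57.8%) and 16 were silent (64%, against 32.0%). Those expressed were ACKR3 (28.9 ± 2.21 CPM), TLR6 (17.3 ± 1.87) and TLR4 (2.71 ± 0.118). Of 22 WNT, NOTCH and Hedgehog receptors, 14 were expressed (63.6%, near the 57.8% of all genes), led per length by FZD4 (133 ± 7.50 CPM), FZD2 (35.0 ± 1.29), LRP5 (94.2 ± 4.16) and NOTCH2 (192 ± 5.83). The stem cell receptor LGR5 and the Hedgehog transducer SMO were at 0.

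Several ligands of these receptors were expressed in the same cultures and others were at 0. Of 59 growth factors and cytokines, 31 were expressed (52.5%, against 57.8%) and 15 silent (25.4%, against 32.0%). BMP2 (226 ± 9.98 CPM) and the WNT antagonist DKK1 (120 ± 15.9 CPM) led per length and overlapped, ahead of VEGFB (59.1 ± 0.947 CPM) and TGFB1 (120 ± 9.88 CPM). Of the EGFR ligands, TGFA stood at 27.5 ± 2.56 CPM, EREG at 7.81 ± 0.728 CPM and HBEGF at 5.98 ± 1.65 CPM. GAS6, the ligand of AXL, was at 9.23 ± 0.250 CPM. HGF, the ligand of MET, had 0 counts, as had IGF1, TNF, CCL2 and CXCL1. VEGFA was at 127 ± 9.97 CPM while its receptors KDR and FLT1 were at 0, and KITLG was at 29.8 ± 4.05 CPM while its receptor KIT was at 0. LIF (20.1 ± 0.832 CPM) stood beside both chains of its receptor, LIFR (77.6 ± 9.45 CPM) and IL6ST (67.8 ± 14.1 CPM).

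Most oncogenes and tumour suppressors were expressed, and a few were close to silent. Of 44 oncogenes, 33 were expressed (75%, against 57.8%), with a median of 41.3 CPM. YAP1, the Hippo pathway coactivator, had 1329, 1348, 1282 and 1292 CPM and lay apart from all others per length (582 ± 26.3 ppm). MYC, a driver of growth genes, came next per length, with 384, 370, 396 and 374 CPM, while MYCN had 9 counts (0.0798 to 0.331 CPM) and MYCL was at 0.558 ± 0.167 CPM. CDK4 (249 ± 16.5 CPM) and MCL1 (326 ± 12.5) came next per length and overlapped. Of the D cyclins, CCND3 (191 ± 6.68 CPM) and CCND1 (154 ± 8.18) overlapped per length and CCND2 had 1 count. Telomerase (TERT) was at 0.855 ± 0.0929 CPM, just under the limit in all 4 libraries. AKT1 (136 ± 3.34 CPM) and AKT2 (151 ± 4.67) were expressed.

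Tumour suppressors had the highest expressed share of the 29 lists, 30 of 34 (88.2%, against 57.8%), with a median of 60.3 CPM. The cell cycle inhibitors CDKN1A (202 ± 22.9 CPM) and CDKN2A (239 ± 19.5) led per length and overlapped. CDKN2A, which encodes p16 and p14ARF, had 230, 226, 268 and 234 CPM. RB1, which holds back entry into the cell cycle, stood at 32.6 ± 2.66 CPM. The kinase gene STK11 was the lowest expressed member per length at 0.907 ± 0.122 ppm, with 2.83, 2.98, 3.16 and 2.27 CPM, and it overlapped per length with BRCA2 (1.31 ± 0.489 ppm). DLC1 had 1 count, and the WNT antagonists SFRP1 and WIF1 had 0.

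Some genes of the cancer-testis list were expressed, and antigen presentation genes were mostly those of class I. Of 31 matched cancer-testis genes, 4 were expressed (12.9%, against 57.8%) and 25 silent (80.6%, against 32.0%). MAGED2, the first per length, stood at 270 ± 18.8 CPM and held 48% of the list's summed level. Whether MAGED2 is restricted to the germline was not examined, so its level is not read as that of a germline gene. Without MAGED2 the list summed to 278 to 305 CPM per library. MAGEA1 had 113, 123, 109 and 120 CPM, MAGEB2 86.6, 99.0, 95.1 and 103 CPM, and PRAME 77.2, 81.5, 80.9 and 78.7 CPM. Many members of these families are near-identical copies, and MAGEA3, MAGEA6 and the GAGE and SSX genes, all at 0, are uncertain for that reason. Of 26 antigen presentation genes, 12 were expressed (46.2%, against 57.8%). B2M, the shared light chain of class I molecules, had 852 ± 47.2 CPM, and the heavy chains HLA-C (43.9 ± 4.49) and HLA-B (26.4 ± 3.71) were expressed. HLA genes vary between people and share sequence, so their order is uncertain. The class II genes HLA-DRA, HLA-DPA1, HLA-DPB1 and HLA-DQA1 were at 0, their activator CIITA had 1 count, and the class II loading gene HLA-DMA was low at 2.35 ± 0.621 CPM.

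The 4 libraries were alike for most genes. Of the 10 genes that varied most, 9 were highest in library 4, and the other gene, which was not, is not reported here. The biological coefficient of variation, the spread between libraries beyond counting error, was 6.54%. Among the 10416 genes at 10 CPM or more, the median excess variation was 4.97%, and 68 genes (0.653%) exceeded 20%. CPA4, a carboxypeptidase, led at 40.6% with 8.33, 15.5, 10.2 and 20.9 CPM. OLR1, a scavenger receptor of oxidised lipoprotein, had 15.8, 23.7, 16.9 and 31.0 CPM, and ANKRD1, a known target of YAP1, had 21.8, 28.1, 22.1 and 39.0 CPM. ANO2, B3GALT6 and CITED4 were also highest in library 4. In these genes library 1 was the lowest. A further 3 of these 9 were pseudogenes of the heat shock gene HSPA8, whose counts depend on how reads were shared between copies. Among the 100 most variable genes the picture was different. Library 3 had the lowest value for 58 of them, library 2 the highest for 41 and library 4 the highest for 23.

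**Figure D5:**
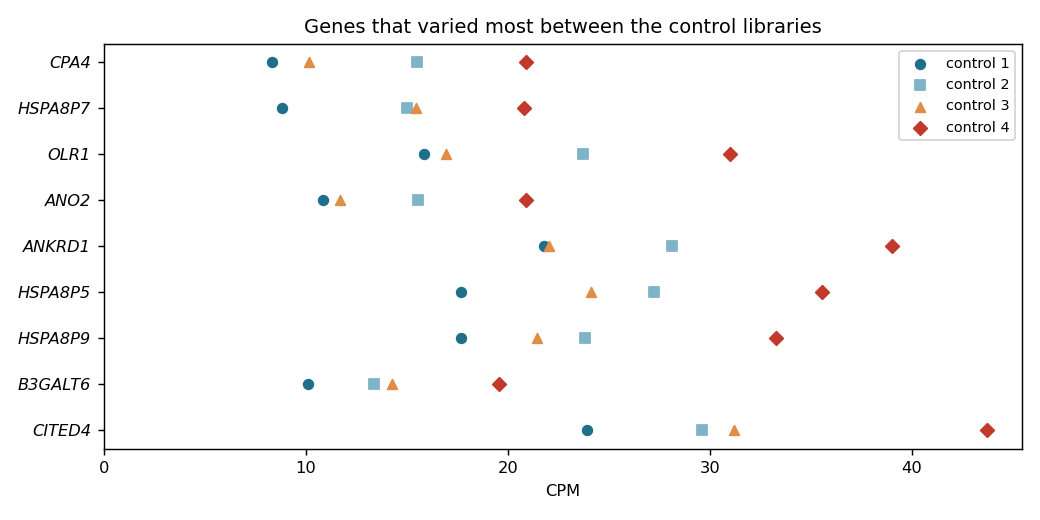
CPM (x axis, from 0) of 9 of the 10 genes that varied most between the 4 control libraries beyond counting error; each symbol is 1 library. Library 4 is highest for each of the 9 genes drawn, with CPA4 running from 8.33 to 20.9 CPM.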

How the data were processed

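Poly-A RNA of 12 samples had been sequenced, of which the 4 control libraries are described here. Per the labels' protocols, RNA was made into libraries with a TruSeq Stranded mRNA kit and sequenced on a NextSeq500. The authors deposited raw read counts for Ensembl genes, in whole numbers and without normalization. The build named in the submitters' processing notes is GRCh37, and featureCounts 1.4.6 and STAR 2.4.1d are among the tools they name, with no role given. How strand and reads with several matches were handled is not given in the sources used here, nor is the gene annotation.

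The table held 63152 genes and 0 rows without a gene. Symbols, classes and exon lengths (union of exons) were looked up by identifier in GENCODE 29, an annotation of GRCh38, for 51989 genes holding 99.3% of the control counts. Lengths therefore come from another build than the counts, and no coordinates of counted genes are given. Scaling (TMM) and dispersion used edgeR 4.0.16 in R 4.3.3 on the 4 control libraries alone, the dispersion with 14828 genes kept by filterByExpr. The level per length is CPM per kilobase rescaled to the same sum in every library (ppm). Excess variation is the square root of variance minus mean, over the mean, of scaled counts. Poisson intervals (95%, exact, for genes under 20 summed counts) and the floor of 3 counts cover counting error only, and libraries carried no molecular identifiers.

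The 29 lists hold 780 entries, of which 775 matched. They and the control cells were chosen with earlier results of these data known. Besides genes at 0 counts, the naming rule takes the 20 most abundant genes by CPM and per length, the first 4 expressed members per list (all where fewer than 5), a fixed set of lineage, receptor and oncogene names, and the 10 most variable genes. It gave 175 genes. Other list members, such as STK11 and SOX9, were named after their values were seen. Some genes of the lists are not reported here by name. Dispersion estimates were tested on simulated data with all 63152 genes, where true values of 3%, 5% and 10% came out as 3%, 4.96% and 9.96%. Alternatives covered scaling, thresholds, length model, mitochondrial RNA and leaving out each replicate.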

Additional observations from a re-analysis of the deposited data

Results flagged for a closer look

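Of 148 named and expressed genes, 4 had 1 library set apart from the other 3, where chance alone flags about 1 in 20. S100A11 was at 439 CPM in control library 3 against 364 to 372 CPM in the others. RPL19, a ribosomal protein gene, was at 1009 CPM in library 3 against 895 to 907 CPM. SFN was at 137 CPM in library 2 against 146 to 148 CPM. HOXB7 was at 21.4 CPM in library 4 against 16.9 to 17.5 CPM.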

How the results depend on the processing

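Leaving out each replicate in turn changed none of the counts of expressed and silent genes by over 1.5 times, for the 29 lists and for all protein-coding genes, and the scaling alternatives did not either (DESeq2 size factors, upper quartile, library size, TMM over 12 libraries, counts without mitochondrial RNA). With a threshold of 0.5 CPM, 6 pattern and chemokine receptors were called in place of 3. With 2 CPM, or a level per length of 1, 1 terminal marker of other tissues was called in place of 2. The biological coefficient of variation was 6.09% to 6.93% leaving out each replicate in turn and 4.26% as the median of gene-wise DESeq2 estimates. With the median transcript as the length, 2 of the first 4 genes per length stayed in front for nuclear receptors, for WNT, NOTCH and Hedgehog receptors, for growth factors and for tumour suppressors. For HOX genes, receptor tyrosine kinases, cytokine and death receptors, oncogenes, mesenchymal genes and hepatocyte factors, 3 of the first 4 stayed. All these orders therefore depend on the length model, whereas epithelial genes kept their first 4. Of 175 named genes, 28 moved by over 1 SD with TMM over 12 libraries, where levels over 10 CPM were 1.04 to 1.05 times as high. No paired analysis was possible because a single group was described and no result comes from a test.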
